A study of Mus musculus with 14 samples.

Results

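Pdcd1, Lag3, Ctla4 and Tigit encode PD-1, LAG-3, CTLA-4 and TIGIT, the checkpoint receptors most often blocked or studied on T cells. They were picked by gene symbol, 4 of the 10106 genes in the expression table. All 4 passed the filter on low values, a mean of at least 1 RPKM over the libraries, which left 9793 genes for testing. RPKM is a read count scaled to the length of the transcript and to the mapped reads of the library, so levels are given per length and can be set side by side between genes.

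The study measured polyadenylated RNA in 14 libraries of mouse CD8+ T cells. All cells came from OTI mice, whose CD8+ T cells share a transgenic receptor for the SIINFEKL peptide of ovalbumin on MHC class I. They were transferred on day 0 into CD45.2+ recipients labelled C57BL/6 or C57BL6j, and sorted from the spleen on day 4 as CD3e+ CD8+ CD45.1+ cells. The mice were 8 to 12 weeks old. Recipients had been injected intravenously on day 1 with saline (Naive, 3 libraries) or with 223 pmol of antigen. The antigens were soluble ovalbumin (OVA, 3 libraries), ovalbumin carrying ERY1, a peptide that attaches it to red blood cells (ERY1-OVA, 3 libraries), the free peptide (SIINFEKL, 2 libraries) and the peptide targeted to erythrocytes with TER119, an antibody to the erythroid surface (TER119-SIINFEKL, 3 libraries). Every group, Naive included, thus holds transferred cells of 1 receptor specificity. The labels do not say whether libraries of a group came from separate recipients, so p-values measure the spread between libraries, which may be in part technical. Sequencing depth is unknown, since the table holds no counts.

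Checkpoint receptors are induced on T cells by signals from the antigen receptor and restrain those signals when they meet their ligands. PD-1 recruits phosphatases after binding PD-L1 or PD-L2, LAG-3 binds MHC class II and other ligands, CTLA-4 competes with CD28 for CD80 and CD86, and TIGIT competes with CD226 for CD155. In CD8+ T cells they appear briefly during an acute response, and they stay high together in cells that become exhausted or tolerant under lasting antigen.

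The proximal promoters are shown because all 4 genes rose after OVA, ERY1-OVA and TER119-SIINFEKL. RefSeq sequences on GRCm38.p6 were at hand for 3 of the 4 genes, Pdcd1, Ctla4 and Tigit. Each line gives the 250 bases before the annotated start, 5′ to 3′ on the gene's strand, at chr1:94052554-94052803 (minus strand), chr1:60908775-60909024 (plus strand) and chr16:43664185-43664434 (minus strand). Capitals mark matches to GGAAA, the core of NFAT sites, read on either strand. NFAT is the calcium-driven factor downstream of the antigen receptor.
Pdcd1: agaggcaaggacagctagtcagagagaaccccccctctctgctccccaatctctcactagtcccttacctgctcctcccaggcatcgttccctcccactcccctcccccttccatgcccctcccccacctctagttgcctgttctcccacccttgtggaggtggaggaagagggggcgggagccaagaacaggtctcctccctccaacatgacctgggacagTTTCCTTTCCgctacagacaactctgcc
Ctla4: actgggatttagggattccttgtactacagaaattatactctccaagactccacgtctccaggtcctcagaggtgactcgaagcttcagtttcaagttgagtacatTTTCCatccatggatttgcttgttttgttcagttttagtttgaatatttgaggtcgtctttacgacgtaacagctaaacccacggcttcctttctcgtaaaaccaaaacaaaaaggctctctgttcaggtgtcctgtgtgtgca
Tigit: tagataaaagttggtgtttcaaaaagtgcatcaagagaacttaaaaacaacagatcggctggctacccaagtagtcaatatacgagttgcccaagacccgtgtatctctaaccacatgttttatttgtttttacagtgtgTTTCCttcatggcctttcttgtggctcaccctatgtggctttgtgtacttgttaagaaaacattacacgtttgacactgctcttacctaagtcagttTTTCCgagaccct
In these windows the core GGAAA occurred 2 times before Pdcd1, starting 28 and 23 bases upstream of the start, so that the matches adjoin in 1 run. It occurred 1 time before Ctla4, at 144 bases, and 2 times before Tigit, at 110 and 13 bases. These matches are common: 55.6% of 32851 promoter windows of this length held at least 1 and 21.4% at least 2. The AP-1 motif TGANTCA (6.7% of all windows), the NR4A monomer site AAAGGTCA (1.3%), the EGR motif GTGGGCG (7.0%) and the TATA box letters TATAAA (12.4%), searched on both strands, matched in none of the 3. The windows also differed in base composition. Pdcd1 had 60.4% G and C, against 42.4% in Ctla4 and 40.0% in Tigit, around a median of 52.4% over all windows. The start of Tigit used here, at chr16:43664184, lies upstream of its start in GENCODE, at 43664146. The bases after it were not found in a GENCODE transcript. The GENCODE span of Ctla4 begins upstream of its window.

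Before the values, 1 pair of libraries needs naming. SIINFEKL replicates 1 and 2 differed by 3.69 log2 units in Pdcd1 and by 3.87 in Lag3, in each case more than in 99.9% of genes tested, where the median gap of that pair was 0.25. The gap was 1.22 in Ctla4 and 0.34 in Tigit. The cells' identity matched the sort: 5 CD8 T cell markers (Cd8a, Cd8b1, Cd3e, Cd3d and Cd3g) summed to 1779 to 3028 RPKM in every library, and Cd4 stood at 0.182 to 1.31 RPKM. The CD8 sums were 2631 to 3028 in Naive, 1920 to 2231 in OVA, 2143 to 2317 in ERY1-OVA, 2624 to 2649 in SIINFEKL and 1779 to 2422 in TER119-SIINFEKL. Of the 5, limma called 4 lower than Naive in OVA, 3 in ERY1-OVA and 2 in TER119-SIINFEKL. Over all genes 47.6%, 39.9% and 47.6% were called there, in either direction. Among markers of other cells, the summed MHC class II and dendritic cell genes (5 of 7 with values) reached 71.5 RPKM in OVA replicate 1 and 36.6 RPKM in TER119-SIINFEKL replicate 1. In the other libraries they ranged no higher than 28.9 RPKM, in Naive replicate 3. The 2 of 5 B cell markers with values, Cd79b and Cd22, summed to 8.49 to 10.3 RPKM in Naive, 15.1 to 21.8 in OVA, 17.6 to 22.5 in ERY1-OVA, 12.8 to 21.5 in SIINFEKL and 23.8 to 27.5 in TER119-SIINFEKL. Of that pair Cd22 rose against Naive in all 4 groups, by 3.33 to 4.94 log2 units, while Cd79b passed in none of them (0.22 to 0.60, limma adjusted p from 0.063 to 0.5). The 2 macrophage markers with values of 5 listed symbols, Cd68 and Lyz2, summed to 3.50 to 7.08 RPKM in Naive, 5.90 to 15.6 in OVA, 5.33 to 10.6 in ERY1-OVA, 5.90 to 6.65 in SIINFEKL and 6.87 to 7.66 in TER119-SIINFEKL. Cd68 passed in OVA, ERY1-OVA and TER119-SIINFEKL, at 0.88, 1.24 and 1.26. Lyz2 passed in no group and mostly pointed the other way. Its values were 0.66 in OVA, -1.93 in ERY1-OVA, -0.64 in SIINFEKL and -1.27 in TER119-SIINFEKL (limma adjusted p from 0.062 to 0.66). The OVA call of Cd68 was at the threshold (limma adjusted p = 0.05 after rounding) and was lost when any 1 of 9 libraries was left out (0.65 to 1.00). Its ERY1-OVA call was lost without ERY1-OVA replicate 3 (0.85) or Naive replicate 2 (1.01). Klrb1c, the 1 of 2 NK cell markers with a value, stood at 6.20 to 6.88 RPKM in Naive, 2.51 to 4.92 in OVA, ERY1-OVA and SIINFEKL, and 4.72 to 14.7 in TER119-SIINFEKL. The 2 erythroid genes with values of 6 listed symbols, Hba-a1 and Hba-a2, are near-identical copies and summed to 1.53 to 10.9 RPKM in all libraries but TER119-SIINFEKL replicate 1, which had 20.3 RPKM. The part of these markers in the receptor results was not tested, and in sorted bulk cells more positive cells and more RNA per cell cannot be told apart.

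Pdcd1 (ENSMUSG00000026285, chr1:94038305-94052553, minus strand, GRCm38) encodes PD-1. Its levels in the 3 Naive libraries were -1.77, -1.41 and -1.25 log2 RPKM, below nearly all genes listed. OVA libraries stood at 3.53, 3.20 and 3.32, ERY1-OVA libraries at 3.85, 4.07 and 4.04, and TER119-SIINFEKL libraries at 5.08, 5.01 and 5.00. The SIINFEKL replicates stood at 4.91 and 1.22. Every antigen library was thus above every Naive library, and OVA, ERY1-OVA and TER119-SIINFEKL formed 3 steps without overlap. SIINFEKL replicate 1 was just under the TER119-SIINFEKL libraries, while replicate 2 was the lowest of the 11 antigen libraries. In linear terms the mean went from 0.364 ± 0.0648 RPKM in Naive (SD, n = 3) through 10.2 ± 1.23 in OVA and 15.9 ± 1.33 in ERY1-OVA to 32.7 ± 1.05 in TER119-SIINFEKL. In rank the gene moved from above at most 1.3% of genes listed in Naive libraries to above 74.7 to 76.5% of them in TER119-SIINFEKL libraries. The TER119-SIINFEKL replicates lay within 0.08 log2 units of each other, a gap smaller than in most genes, since 5.7% of genes tested had a smaller one.

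Lag3 (ENSMUSG00000030124, chr6:124904361-124911705, minus strand) encodes LAG-3, a relative of CD4. Naive libraries held -0.33, -1.02 and -0.61 log2 RPKM. After antigen the values were 4.16, 4.50 and 4.44 in OVA, 5.86, 5.34 and 5.68 in ERY1-OVA, 7.18 and 3.31 in SIINFEKL, and 5.88, 6.29 and 6.03 in TER119-SIINFEKL. Again no antigen library overlapped Naive. SIINFEKL replicate 1 was the highest of all 14 libraries and replicate 2 the lowest of the antigen libraries, so the order of levels among the antigen groups depends on how that pair is read. Without that pair the order was OVA, ERY1-OVA, TER119-SIINFEKL, and the last step was small: the highest ERY1-OVA library (5.86) nearly touched the lowest TER119-SIINFEKL library (5.88). Mean levels were 0.646 ± 0.151 RPKM in Naive, 20.7 ± 2.51 in OVA, 50.0 ± 8.83 in ERY1-OVA and 67.5 ± 9.84 in TER119-SIINFEKL (SD, n = 3 each), and 145.0 and 9.95 RPKM in the SIINFEKL replicates.

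Ctla4 (ENSMUSG00000026011, chr1:60887000-60915832, plus strand) encodes CTLA-4, much of which is held inside the cell. It had 0.89, 0.44 and 2.13 log2 RPKM in Naive libraries. The values were 4.35, 4.78 and 4.94 in OVA, 5.34, 5.78 and 6.76 in ERY1-OVA, 6.49 and 5.27 in SIINFEKL, and 5.75, 6.18 and 5.99 in TER119-SIINFEKL. OVA was the lowest antigen group and overlapped none of the others, while ERY1-OVA, SIINFEKL and TER119-SIINFEKL overlapped each other and had means of 5.96, 5.88 and 5.97. Naive replicate 3 stood apart from the other two Naive libraries. Replicates also scattered in ERY1-OVA, from 40.5 to 108.0 RPKM, a log2 gap of 1.42 that was larger than in 99.0% of genes tested. The annotated span of Ctla4 contains a pseudogene, Rpl18-ps1, on the same strand.

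Tigit (ENSMUSG00000071552, chr16:43648867-43664146, minus strand) encodes TIGIT. Its Naive libraries stood at 0.26, -0.11 and 1.74 log2 RPKM. The values were 1.52, 2.20 and 2.19 in OVA, 2.68, 2.12 and 2.52 in ERY1-OVA, 1.48 and 1.81 in SIINFEKL, and 3.28, 3.45 and 3.27 in TER119-SIINFEKL. TER119-SIINFEKL stood above all other libraries, whereas SIINFEKL, OVA and ERY1-OVA followed each other with overlapping libraries. Naive replicate 3 lay inside the range of the SIINFEKL and OVA libraries. As in Ctla4 this Naive library was the high one, and the difference between Ctla4 and Tigit was nearly constant across the 3 Naive libraries at 0.63, 0.55 and 0.39 log2 units. The SIINFEKL pair, so far apart in Pdcd1 and Lag3, lay close together here.

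**Figure D1:**
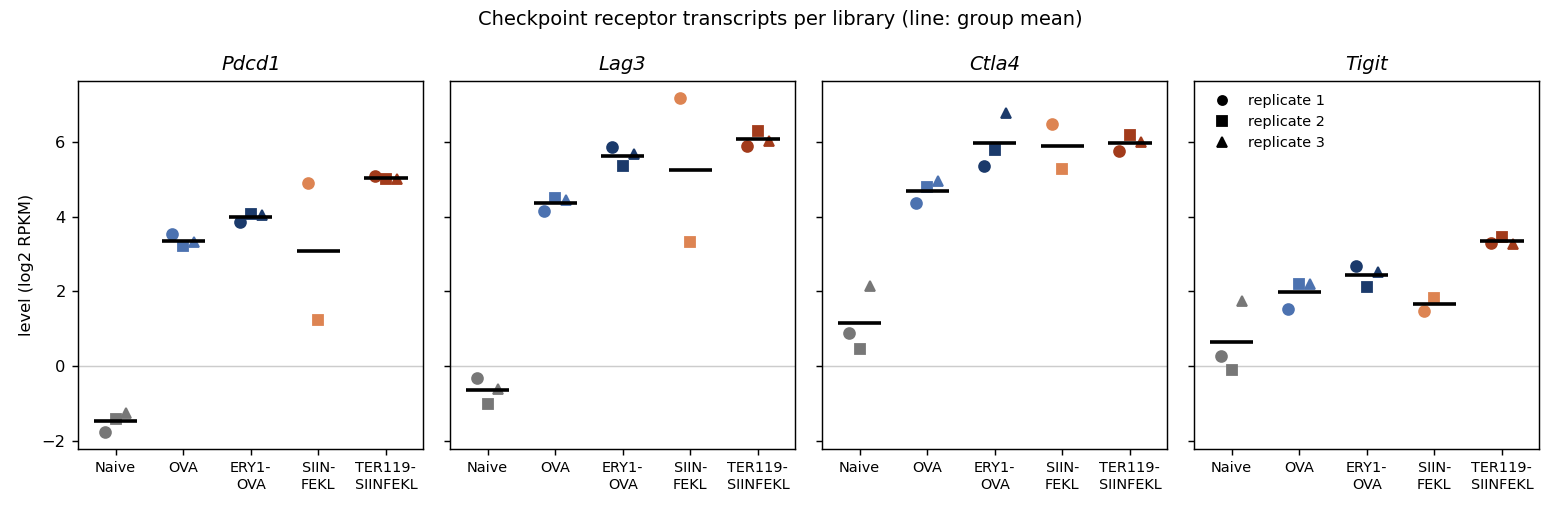
Levels of the 4 checkpoint receptor transcripts (log2 RPKM, vertical axis) in each of the 14 libraries, by group (horizontal axis); symbols give the replicate number and lines the group mean. The TER119-SIINFEKL libraries of Pdcd1 lie together between 5.00 and 5.08, and the SIINFEKL replicates lie far apart in Pdcd1 and Lag3 but not in Tigit, at 1.48 and 1.81.

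The make-up of the receptor pool changed as well as its size. The 4 transcripts summed to 3.15 to 8.79 RPKM in Naive libraries, 52.8 to 67.1 in OVA, 117 to 182 in ERY1-OVA and 156 to 194 in TER119-SIINFEKL, and to 268 and 54.5 in the SIINFEKL replicates. In Naive libraries Ctla4 made up 43.1 to 49.9% of this sum and Tigit 29.0 to 37.9%. After antigen Tigit gave 1.0 to 7.2% in all 11 libraries. Tigit was above both Pdcd1 and Lag3 in every Naive library and was the lowest of the 4 in every antigen library except SIINFEKL replicate 2, where Pdcd1 was lower by 0.60 log2 units. Lag3 exceeded Pdcd1 in all 14 libraries, by 0.38 to 2.27 log2 units. In the SIINFEKL pair this difference was 2.27 and 2.10, so Pdcd1 and Lag3 were high together in replicate 1 and low together in replicate 2. Lag3 and Tigit kept a fixed distance in ERY1-OVA, at 3.16 to 3.22 log2 units, although Lag3 ranged over 0.52 and Tigit over 0.56 log2 units there.

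Antigen groups were compared with Naive to see how far each form of antigen raised the receptors above resting cells. The 4 comparisons share the Naive libraries and are not independent. With limma fitted on all 14 libraries and p-values adjusted by Benjamini-Hochberg over all genes tested, all 4 receptors rose in OVA, ERY1-OVA and TER119-SIINFEKL, and 3 of 4 rose in SIINFEKL. As background, limma called 47.6% of genes in OVA, 39.9% in ERY1-OVA, 15.9% in SIINFEKL and 47.6% in TER119-SIINFEKL, and called higher 24.4%, 20.9%, 7.58% and 24.6% in that order. The libraries of Pdcd1, Lag3 and Ctla4 lay above all Naive libraries in each of the 4 groups, and those of Tigit did in ERY1-OVA and TER119-SIINFEKL. Such separation upward was seen in 28.7%, 26.2%, 21.4% and 29.6% of genes tested in OVA, ERY1-OVA, SIINFEKL and TER119-SIINFEKL.

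In OVA the log2 fold changes were 4.82 ± 0.59 (SE) for Pdcd1, 5.02 ± 0.63 for Lag3, 3.54 ± 0.43 for Ctla4 and 1.34 ± 0.36 for Tigit, with limma adjusted p-values of 2.9e-05, 3.3e-05, 2.3e-05 and 0.0084. In ERY1-OVA they were 5.46 ± 0.59, 6.29 ± 0.63, 4.80 ± 0.43 and 1.81 ± 0.36 in the same order, with limma adjusted p-values of 1.2e-05, 6.2e-06, 2.4e-06 and 0.0016. Tigit was the gene with the smallest rise in each. In TER119-SIINFEKL the fold changes reached 6.50 ± 0.59, 6.72 ± 0.63, 4.82 ± 0.43 and 2.71 ± 0.36, with limma adjusted p-values of 2.4e-06, 2.8e-06, 1.8e-06 and 5.3e-05. Lag3 and Pdcd1 then ranked 1 and 2 among all genes tested by fold change. Lag3 also ranked 1 in ERY1-OVA, where Pdcd1 ranked 12, and in OVA they ranked 44 and 60. The size of these folds depends on how low values were handled before deposit, since Pdcd1 and Lag3 were under 1 RPKM in Naive cells. With a pseudocount of 1 RPKM the TER119-SIINFEKL fold changes were 4.63 for Pdcd1 and 5.37 for Lag3, and those in OVA were 3.04 and 3.72. All the calls named above held in that setting.

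In SIINFEKL the fold changes were 4.54 ± 0.67 for Pdcd1, 5.90 ± 0.70 for Lag3 and 4.73 ± 0.48 for Ctla4 (SE, 2 against 3 libraries), with limma adjusted p-values of 0.00078, 0.00019 and 6.7e-05. These ranked 4, 1 and 3 among all genes tested. The means hide the spread of the pair. The errors pool the spread of all 5 groups. Outside SIINFEKL the largest gap between libraries of a group was 0.52 in Pdcd1 and 0.69 in Lag3. In the SIINFEKL pair the gaps were 3.69 and 3.87, so the errors and p-values of Pdcd1 and Lag3 understate its scatter. Taken singly against the Naive mean, replicate 1 was higher by 6.39 in Pdcd1 and 7.84 in Lag3, and replicate 2 by 2.69 and 3.97. In Ctla4 the replicates were higher by 5.34 and 4.12. Tigit had a fold change of 1.02 ± 0.41 and a limma adjusted p of 0.10, with libraries overlapping Naive. Without Naive replicate 3 it was 1.57 with an adjusted p of 0.0035, so this 1 resting library decided the call. The same library moved the other Tigit folds upward without changing their calls, to 1.89 in OVA, 2.37 in ERY1-OVA and 3.26 in TER119-SIINFEKL.

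ERY1-OVA was set against OVA to see what binding of the protein to erythrocytes changed. Pdcd1, Lag3 and Ctla4 were higher in ERY1-OVA in 3 of 3 libraries than in any OVA library, while Tigit overlapped. Such separation upward occurred in 11.6% of genes tested. The log2 fold changes were 0.64 ± 0.59 for Pdcd1, 1.26 ± 0.63 for Lag3, 1.27 ± 0.43 for Ctla4 and 0.47 ± 0.36 for Tigit. None passed the test over all 14 libraries, with limma adjusted p-values of 0.65, 0.33, 0.15 and 0.56, in a comparison where 1.06% of genes were called. At an unadjusted limma threshold of 0.05, 1 of the 4 passed, Ctla4. The share of all genes passing that threshold is not known here.

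Those errors come from a spread shared by all 5 groups, into which the SIINFEKL pair enters. A fit without the SIINFEKL group, chosen after the values were seen, kept the same differences with smaller errors. Pdcd1 had 0.64 ± 0.14 and a limma adjusted p of 0.03, and Lag3 1.26 ± 0.18 and a limma adjusted p of 0.0061. Ctla4 (1.27 ± 0.39, adjusted p = 0.091) and Tigit (0.47 ± 0.36, adjusted p = 0.52) did not pass in that limma fit either. In it 3.67% of genes were called, and 1.43% called higher. Among the fits run, the Pdcd1 call appeared only in some that lacked 1 or both SIINFEKL libraries. It did not appear with only the OVA and ERY1-OVA libraries. The Lag3 call appeared wherever the Pdcd1 call did. It also appeared with array weights, which give less weight to scattered libraries (limma adjusted p = 0.043), and with only the OVA and ERY1-OVA libraries (0.013).

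TER119-SIINFEKL was set against SIINFEKL, the same question for the peptide. Pdcd1 had a fold change of 1.97 ± 0.67 and Tigit of 1.69 ± 0.41, with limma adjusted p-values of 0.033 and 0.0057, in a comparison where 37.4% of genes were called and 20.4% called higher. Lag3 (0.82 ± 0.70, adjusted p = 0.38) and Ctla4 (0.09 ± 0.48, adjusted p = 0.90) did not pass in limma. In Pdcd1 and Tigit every TER119-SIINFEKL library lay above both SIINFEKL libraries, a separation seen in 28.9% of genes tested. In Pdcd1 the margin was narrow, with the lowest TER119-SIINFEKL library at 5.00 and SIINFEKL replicate 1 at 4.91. The Tigit call held in each setting tried. The markers Cd22 (1.61 ± 0.16, limma adjusted p = 1.1e-05) and Klrb1c (1.21 ± 0.36, 0.019) were also called higher in this comparison. Cd79b, the other B cell marker with values, did not pass (0.13 ± 0.28, limma adjusted p = 0.74). Without TER119-SIINFEKL replicate 1, the library highest in Klrb1c, Klrb1c had 0.75 (limma adjusted p = 0.044) and Tigit 1.72 (0.013). Without SIINFEKL replicate 2 the Klrb1c call was lost (1.04). The Pdcd1 call did not hold in each setting. With only the groups compared it was lost (limma adjusted p = 0.15). Without SIINFEKL replicate 2 the difference in Pdcd1 was 0.12, and without replicate 1 it was 3.81. Lag3 changed sign with the library left out, at -1.11 without replicate 2 and 2.75 without replicate 1. With 1 SIINFEKL library left, the group has no spread of its own in the fit, so p-values are not given. Of the 4 genes, Tigit was therefore the one whose difference between targeted and free peptide did not turn on which SIINFEKL library was used.

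The 2 targeted antigens were compared directly. No receptor passed in limma over all 14 libraries, where 0.562% of genes were called. The fold changes of TER119-SIINFEKL over ERY1-OVA were 1.04 ± 0.59 for Pdcd1, 0.44 ± 0.63 for Lag3, 0.02 ± 0.43 for Ctla4 and 0.89 ± 0.36 for Tigit, with limma adjusted p-values of 0.59, 0.93, 1.0 and 0.37. At an unadjusted limma threshold of 0.05, 1 of the 4 passed, Tigit, and the share of all genes doing so is not known here. Libraries did not overlap in Pdcd1, Lag3 and Tigit, a separation upward seen in 9.15% of genes tested. Without the SIINFEKL group in the fit Pdcd1 passed (1.04 ± 0.14, limma adjusted p = 0.0043), in a fit that called 1.66% of genes. For Ctla4 the 95% interval of the difference ran from -0.90 to 0.93, that is from 0.54-fold to 1.91-fold.

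Averaged over protein and peptide, the targeted forms were higher than the soluble forms by 1.08 ± 0.27 in Tigit (limma adjusted p = 0.027), in a comparison where 7.94% of genes were called and 5.64% called higher. Pdcd1 (1.30 ± 0.45, adjusted p = 0.093), Lag3 (1.04 ± 0.47, adjusted p = 0.20) and Ctla4 (0.68 ± 0.32, adjusted p = 0.22) did not pass in limma. Tigit had the smallest error of the 4 and not the largest difference. Its call was close to the threshold, and with 1 library left out at a time it was lost in 7 of 14 fits, with limma adjusted p-values from 0.0031 to 0.061. Of the B cell markers, Cd22 passed here too (0.73 ± 0.10, limma adjusted p = 0.0015) and Cd79b did not (0.26 ± 0.19, 0.45). No receptor passed the test of whether targeting acted differently on peptide and protein, where 37.7% of genes were called. The nearest was Tigit, at 1.22 ± 0.54 with a limma adjusted p of 0.095, and the 1 gene of the 4 under an unadjusted 0.05. At least the 37.7% of genes called were under that threshold too. Ctla4 pointed the other way at -1.17 ± 0.64 (adjusted p = 0.17).

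**Figure D2:**
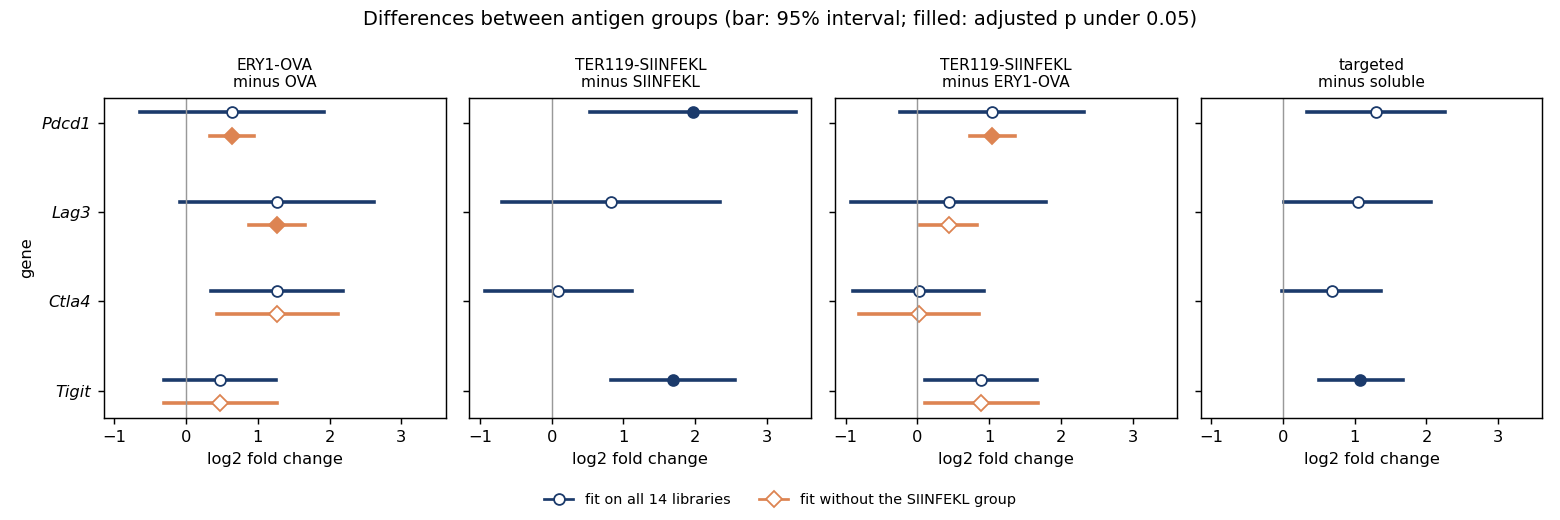
Log2 fold changes (horizontal axis) of the 4 receptors (vertical axis) in 4 comparisons between antigen groups, with 95% intervals, from limma on all 14 libraries (circles) and without the SIINFEKL group (diamonds); filled symbols have an adjusted p under 0.05. In ERY1-OVA minus OVA the Lag3 value is 1.26 in both fits, and its interval runs from -0.09 to 2.62 in the former and from 0.87 to 1.66 in the latter.

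Between SIINFEKL and OVA, the soluble forms, no receptor passed in limma, while 42.2% of all genes were called. Ctla4 came nearest at 1.19 ± 0.48 (limma adjusted p = 0.059), with both SIINFEKL libraries above all 3 OVA libraries, as in 31.2% of genes. It was the 1 gene of the 4 that passed at an unadjusted 0.05, a threshold that at least the 42.2% of genes called also passed. Tigit had -0.32 ± 0.41 (adjusted p = 0.54) with an interval from -1.20 to 0.55. Pdcd1 and Lag3 had no settled sign here, since Pdcd1 was 1.56 higher in SIINFEKL replicate 1 than in OVA and 2.13 lower in replicate 2 (-2.13), and Lag3 was 2.81 higher and 1.05 lower (-1.05).

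How the 4 genes tracked each other was described by Pearson's r over libraries, which share their groups and so are not independent points. Over all 14 libraries r was 0.98 between Pdcd1 and Lag3, 0.958 between Lag3 and Ctla4, and 0.928 between Pdcd1 and Ctla4, and it was 0.765 to 0.805 between Tigit and the others. Over the 11 antigen libraries r was 0.887 between Pdcd1 and Lag3, 0.75 between Lag3 and Ctla4 and 0.548 between Pdcd1 and Ctla4. Tigit had 0.544 with Pdcd1, 0.404 with Lag3 and 0.362 with Ctla4. Among these 11, SIINFEKL replicate 2 was the lowest in Pdcd1 and Lag3, and replicate 1 the highest in Lag3. The r values of Pdcd1 and Lag3 thus lean on that pair, and r without it is not given.

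The genes most like each receptor over the 14 libraries were Kdelc2 for Pdcd1 (r = 0.988), Ptms for Lag3 (0.997), Hbs1l for Ctla4 (0.978) and Rsph3a for Tigit (0.932). Next came Plscr1, Chst2, Bcl2a1a and Bcl2a1d for Pdcd1, Ccdc50, Plxnc1, Kdelc2 and Endod1 for Lag3, Gm8369, Zfp821, Cep19 and Coro1b for Ctla4, and Crtam, Smim3, Abhd4 and Exoc6 for Tigit. Over the 11 antigen libraries alone the leaders were Adk for Pdcd1 (0.976), again Ptms for Lag3 (0.992), Gtdc1 for Ctla4 (0.944) and Nr4a3 for Tigit (0.929). Adk and Ptms also differed widely within the SIINFEKL pair, from 3.92 to 5.24 and from 5.31 to 7.40 log2 RPKM. Gtdc1 (2.44 to 2.70) and Nr4a3 (1.85 to 2.26) did so less. Bcl2a1a and Bcl2a1d are near-identical copies, so their reads may be split between them. Nr4a3, an orphan nuclear receptor induced by antigen receptor signals, was at 3.63 to 4.19 log2 RPKM in TER119-SIINFEKL, 2.58 to 3.18 in ERY1-OVA, and 1.85 to 2.26 in SIINFEKL, OVA and Naive libraries together. Crtam, a receptor of activated CD8+ T cells, followed Tigit in both sets, with 6.13 to 6.22 in TER119-SIINFEKL and 4.25 to 4.50 in Naive.

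The match of Lag3 with Ptms is also one of position. Ptms, which encodes parathymosin, lies 2.0 kb from Lag3 on the same strand, at chr6:124913681-124920103, and is the nearest listed gene upstream. It had 2.82 to 3.05 log2 RPKM in Naive libraries, 5.70 to 6.03 in OVA, 6.52 to 6.83 in ERY1-OVA and 6.78 to 7.00 in TER119-SIINFEKL. In SIINFEKL its replicates stood at 7.40 and 5.31, the highest and lowest antigen libraries, just as for Lag3. Ptms rose against Naive by 2.94 ± 0.35 in OVA, 3.79 ± 0.35 in ERY1-OVA, 3.44 ± 0.39 in SIINFEKL and 4.01 ± 0.35 in TER119-SIINFEKL, with limma adjusted p-values of 1.9e-05, 3.0e-06, 0.00014 and 1.6e-06. For the nearest gene to be the most alike in pattern was uncommon, at 1.04% of 9716 genes with a position, and the median r to the nearest gene was 0.10. Among the 5653 genes whose nearest gene tested lay within 10 kb, the share was 1.31% and the median r also 0.10. Ptms was more abundant than Lag3 in all 14 libraries. Whether some reads of one gene were counted to the other was not tested. Cd4, the gene on the other side of Lag3 at 16.1 kb, stood at or below 1.31 RPKM and was under the filter. Its 2 highest libraries, TER119-SIINFEKL replicate 2 at 1.31 RPKM and SIINFEKL replicate 1 at 1.01, were also the 2 highest in Lag3, in the reverse order. At such low levels of Cd4 this match was not tested.

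Ctla4 lies between the costimulatory receptor genes Cd28 (113.6 kb away) and Icos (62.1 kb away), its relatives, all on the plus strand of chromosome 1. All 3 rose against Naive in every antigen group, but by different amounts. Cd28, already at 32.4 to 35.5 RPKM in Naive cells, rose by 0.66 to 1.00 log2 units. Icos rose from 18.4 to 19.4 RPKM in Naive libraries by 0.68, 1.07, 1.25 and 1.67 in OVA, ERY1-OVA, SIINFEKL and TER119-SIINFEKL. Ctla4 was thus the least abundant of the 3 in Naive cells and rose most. The neighbours of Pdcd1 and Tigit did not rise with them: D2hgdh, 186 kb from Pdcd1, fell in OVA, ERY1-OVA and TER119-SIINFEKL by 0.68, 0.48 and 0.60, and Zbtb20, 6.3 kb from Tigit on the opposite strand, fell by 1.45, 0.66 and 1.20 in the same groups. The ERY1-OVA call of Zbtb20 was lost without Naive replicate 2 (-0.52).

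**Figure D3:**
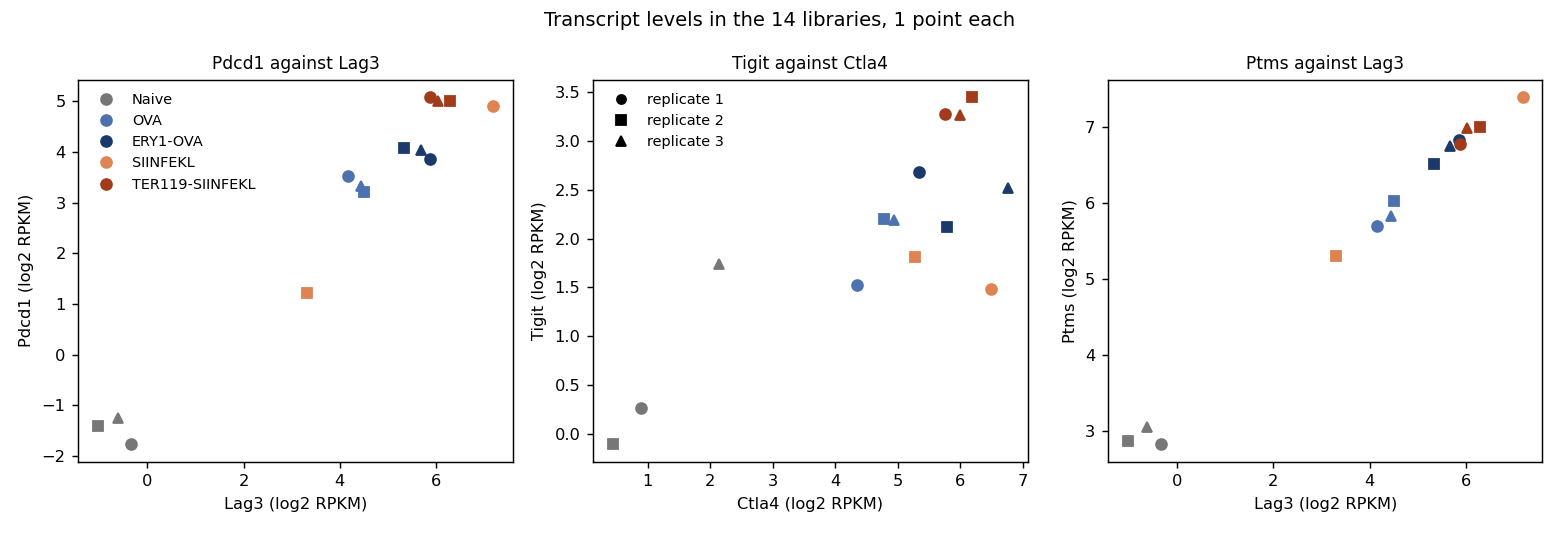
Levels in the 14 libraries (log2 RPKM on both axes) of Pdcd1 against Lag3, Tigit against Ctla4, and Ptms against Lag3; colours give the group and symbols the replicate number. Ptms and Lag3 fall along 1 line (r = 0.997), while the 11 antigen libraries scatter in Tigit against Ctla4 (r = 0.362).

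Partner genes of the receptors were taken from 5 lists, named by the smallest p of the limma F test over groups. Of 15 ligand genes 8 were measured, since T cells can carry ligands themselves. Against Naive, 2 rose and 1 fell in OVA, 2 rose and 2 fell in ERY1-OVA, 1 rose in SIINFEKL, and 2 rose and 1 fell in TER119-SIINFEKL, with list medians of 0.34, -0.40, -0.12 and -0.25 beside -0.04 to 0.00 over all genes. That is 3, 4, 1 and 3 of 8, where 47.6%, 39.9%, 15.9% and 47.6% of all genes were called, so the list was near the background. Cd86, a ligand shared by CTLA-4 and CD28, rose in all 4 groups, by 1.48 ± 0.22, 2.43 ± 0.22, 2.54 ± 0.25 and 2.37 ± 0.22. Pdcd1lg2, which encodes PD-L2, rose by 2.11 ± 0.57, 2.27 ± 0.57 and 2.96 ± 0.57 in OVA, ERY1-OVA and TER119-SIINFEKL from 0.174 to 0.731 RPKM in Naive libraries. Cd274, which encodes PD-L1, went the other way, falling by 0.97 in OVA and by 0.55 in ERY1-OVA, the latter call being lost without ERY1-OVA replicate 1 (-0.35) or either of Naive replicates 1 (-0.54) and 2 (-0.52). The fold change of Cd274 was -0.16 ± 0.17 in TER119-SIINFEKL (limma adjusted p = 0.45). H2-Aa, an MHC class II gene and so part of a LAG-3 ligand, was lower in ERY1-OVA than in Naive (-1.94 ± 0.66, limma adjusted p = 0.031), a call lost without ERY1-OVA replicate 2 (-1.51), Naive replicate 1 (-1.75) or Naive replicate 3 (-1.86). It is 1 of the MHC class II genes that stood high in OVA replicate 1.

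Cd28, Cd226 and Cd96 encode receptors that share ligands with CTLA-4 or TIGIT, and Icos a costimulatory relative of CD28 with a ligand of its own. All 4 were measured. Against Naive, 2 rose in each antigen group and 1 fell in OVA. Over all genes 47.6%, 39.9%, 15.9% and 47.6% were called in OVA, ERY1-OVA, SIINFEKL and TER119-SIINFEKL. Of these 4, Cd28 and Icos rose in each antigen group, while Cd226, the activating counterpart of Tigit, passed in none of the comparisons with Naive (-0.23 to 0.40). Cd96, another receptor for CD155, fell by 0.58 in OVA. Tigit was thus raised 2.71 log2 units in TER119-SIINFEKL while Cd226 stood at 0.35 ± 0.15 (limma adjusted p = 0.063).

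Most signalling and trafficking partners passed in none or few of the comparisons with Naive. Of 19 tested, 4 rose and 1 fell in OVA, 1 rose and 2 fell in ERY1-OVA, 1 fell in SIINFEKL, and 5 rose and 2 fell in TER119-SIINFEKL, and the list medians lay between -0.03 and 0.05. These 5, 3, 1 and 7 of 19 were smaller shares than the 47.6%, 39.9%, 15.9% and 47.6% called over all genes. Sh2d1a, which encodes the adaptor SAP, rose by 1.06 ± 0.24 in OVA, 1.16 ± 0.24 in ERY1-OVA and 0.80 ± 0.24 in TER119-SIINFEKL, the last call being lost without TER119-SIINFEKL replicate 1 (0.61). Zap70, the receptor-proximal kinase opposed by PD-1, rose by 0.46 ± 0.11 in TER119-SIINFEKL. Ap2m1, part of the adaptor that takes CTLA-4 back into the cell, rose by 0.31 ± 0.09 there and by 0.29 ± 0.09 in OVA. Its OVA call was lost without OVA replicate 2 (0.25). Pik3r1, a regulatory subunit of phosphoinositide 3-kinase, fell by 0.77 in OVA, 0.63 in ERY1-OVA and 1.02 in TER119-SIINFEKL.

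Of 20 regulators of checkpoint genes tested, 3 rose and 2 fell in OVA, 4 rose and 3 fell in ERY1-OVA, 5 rose and 1 fell in SIINFEKL, and 9 rose and 5 fell in TER119-SIINFEKL, with medians of -0.23, 0.39, 0.02 and 0.57. Over all genes 47.6%, 39.9%, 15.9% and 47.6% were called, against 5, 7, 6 and 14 of these 20. Irf4 and Batf, factors that act together downstream of the antigen receptor, rose in all 4 groups, Irf4 by 1.98 to 3.70 and Batf by 0.78 to 1.34, although the call of Batf in SIINFEKL was lost without SIINFEKL replicate 1 (0.70). Egr2 and Nr4a3, both induced by antigen receptor signals, differed between some of the antigen groups. Egr2 had -0.32 ± 0.14 in OVA (limma adjusted p = 0.076) and rose by 0.91 ± 0.14, 0.90 ± 0.16 and 1.89 ± 0.14 in ERY1-OVA, SIINFEKL and TER119-SIINFEKL. Nr4a3 had -0.01 ± 0.19 in OVA and 0.03 ± 0.21 in SIINFEKL, and rose by 0.82 ± 0.19 in ERY1-OVA and 1.93 ± 0.19 in TER119-SIINFEKL. Egr2 passed in 3 of the 4 comparisons where no checkpoint receptor did over all 14 libraries, at 1.23 ± 0.14 for ERY1-OVA over OVA (limma adjusted p = 0.0064), 0.98 ± 0.14 for TER119-SIINFEKL over ERY1-OVA (0.011) and 1.22 ± 0.16 for SIINFEKL over OVA (6.4e-05). It did not pass in the peptide-minus-protein test of targeting (-0.24 ± 0.21, 0.40). The first call was lost without ERY1-OVA replicate 1 (1.21, limma adjusted p = 0.064), and the second without ERY1-OVA replicate 2 (1.05, 0.069), TER119-SIINFEKL replicate 2 (0.88, 0.064) or TER119-SIINFEKL replicate 3 (1.06, 0.079). Tigit and Nr4a3 were both higher in TER119-SIINFEKL than in SIINFEKL, Nr4a3 by 1.90 ± 0.21 (limma adjusted p = 3.1e-05).

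Other inhibitory receptors did not all follow the 4 studied here. Of 9 tested, 3 rose and 1 fell in OVA, 5 rose and 2 fell in ERY1-OVA, 3 rose and 2 fell in SIINFEKL, and 6 rose and 2 fell in TER119-SIINFEKL. These 4, 7, 5 and 8 of 9 stand beside 47.6%, 39.9%, 15.9% and 47.6% over all genes. Cd200 rose in each group, by 1.61 ± 0.42, 3.15 ± 0.42, 2.65 ± 0.47 and 4.00 ± 0.42, with 46.3 RPKM in SIINFEKL replicate 1 and 7.90 in replicate 2. Without SIINFEKL replicate 1 its rise in SIINFEKL was 1.37. Cd200r1, the receptor of CD200, rose by 1.27 ± 0.25 in ERY1-OVA and 1.25 ± 0.25 in TER119-SIINFEKL. 4632428N05Rik, which encodes VISTA, an inhibitory receptor of resting T cells, fell in OVA, ERY1-OVA and TER119-SIINFEKL, by 1.11 in ERY1-OVA and 1.16 in TER119-SIINFEKL. Lair1, a collagen receptor, rose by 0.86 ± 0.25 in OVA (0.63 without Naive replicate 3 and 0.64 without OVA replicate 1, neither of which passed) and fell by 1.46 in SIINFEKL. In targeted against soluble forms, where Tigit passed, Cd200 (1.45 ± 0.31, limma adjusted p = 0.015) and Cd200r1 (0.79 ± 0.18, 0.02) passed too, and VISTA passed downward at -0.37 ± 0.09 (0.021). Without SIINFEKL replicate 2 the Cd200 value was 0.81, still called, while Cd200r1 (0.74) and VISTA (-0.36) lost their calls. The Cd200r1 call was also lost without ERY1-OVA replicate 2 (0.76), and that of VISTA without OVA replicate 2 (-0.32) or TER119-SIINFEKL replicates 2 (-0.34) or 3 (-0.37).

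**Figure D4:**
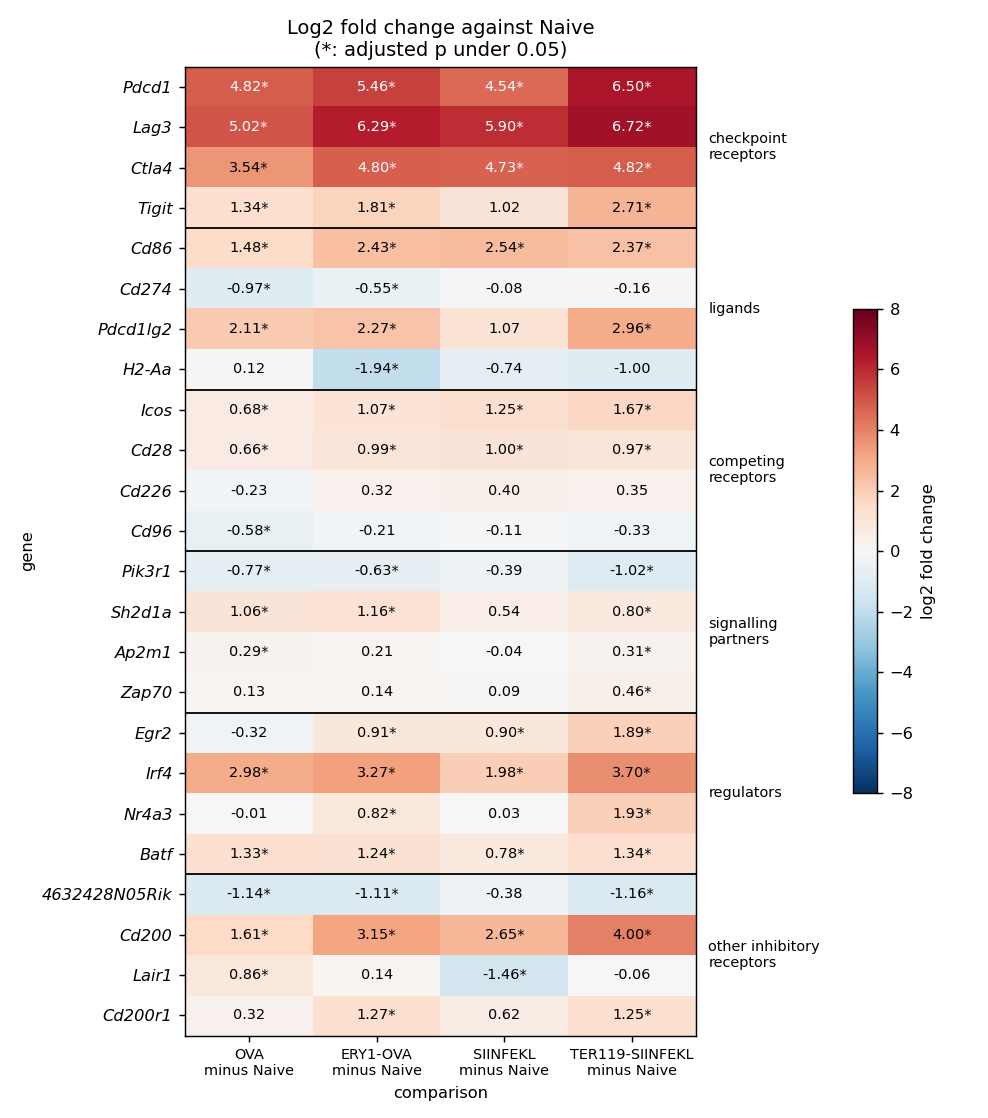
Log2 fold changes against Naive (colour and printed value) of the 4 checkpoint receptors and of up to 4 genes from each of 5 partner lists (rows) in 4 comparisons (columns); stars mark a limma adjusted p under 0.05. The 4 checkpoint receptors fill the top rows, up to 6.72 for Lag3 in TER119-SIINFEKL, and the 4632428N05Rik row is negative in all 4 columns.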

How the data were processed

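The build was GRCm38 (mm10), and STAR 2.4.2, edgeR and bcl2fastq 2.17.1.14 are listed for the 14 RNA libraries, per the submitters' processing notes. The deposited table holds log2 RPKM values per gene and library from the authors. The prior count added before the log, and the counting rules, are not given in the sources used here. Depth is unknown: no gene had equal lowest values in 2 libraries, and 4.3% of values were negative. No libraries were identical, and no column was left unused.

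The values were tested in R 4.3.3 with limma 3.58.1 with a mean-variance trend, 5 groups in 1 fit (9 residual and 4.6 prior degrees of freedom), on 9793 genes with a mean of at least 1 RPKM (313 of 10106 removed). The 10 comparisons were two-sided, adjusted by Benjamini-Hochberg over all genes within each, and called under 0.05. The fit was tested on simulated data. The receptors and gene lists were chosen with earlier results of these data known. The genes named are the 4 receptors, up to 4 per list with the smallest limma F test p, the 5 most alike by Pearson's r over 14 and over 11 libraries, and, chosen for their position, neighbouring genes. Marker genes of other cells were named after their values were seen. Groups came from the sample labels. Alternatives were quantile normalization, pseudocounts of 0.1 and 1, no filter or 3 RPKM, array weights, a replicate block, only the groups compared, and libraries left out. The fit without SIINFEKL was added after the values were seen. Positions are from GENCODE on GRCm38, the build in the processing notes, and promoters from RefSeq on GRCm38.p6.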

Additional observations from a re-analysis of the deposited data

How the results depend on the processing

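Of the receptor fold changes under all alternatives, 878 kept direction and side of the threshold, 34 newly passed, 15 no longer passed and 13 changed sign. All receptor calls against Naive held under every alternative. With array weights, calls appeared for Pdcd1 (1.33) in targeted minus soluble, for Lag3 (1.09) and Ctla4 (1.13) in ERY1-OVA minus OVA and for Tigit (0.99) in TER119-SIINFEKL minus ERY1-OVA, and Tigit lost its call (0.93) in targeted minus soluble. With only the groups compared, Pdcd1 lost its call in TER119-SIINFEKL minus SIINFEKL (1.97, adjusted p = 0.15), and calls appeared for Pdcd1 (1.04) in TER119-SIINFEKL minus ERY1-OVA, Lag3 (1.26) in ERY1-OVA minus OVA, Ctla4 (1.19) in SIINFEKL minus OVA and Tigit (1.22) in the peptide-minus-protein test of targeting. Without the SIINFEKL group the calls of Pdcd1 (0.64 and 1.04) and Lag3 (1.26) appeared. Without both OVA replicate 1 and TER119-SIINFEKL replicate 1, calls were lost by Pdcd1 in TER119-SIINFEKL minus SIINFEKL (1.94) and Tigit in targeted minus soluble (0.98). With quantile normalization Ctla4 was -0.07 in TER119-SIINFEKL minus SIINFEKL and -0.01 in TER119-SIINFEKL minus ERY1-OVA, and passed in SIINFEKL minus OVA (1.33), as with a pseudocount of 1 (1.16), which also called Tigit (1.04) in the peptide-minus-protein test. The cause was not tested.

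The labels do not say whether replicate numbers pair the libraries, so the deviations of libraries from their group means were correlated between groups. Same-numbered libraries had correlations from -0.443 to 0.665 (median 0.126), with 14 of 26 pairs over 0.1. Other-numbered pairs ranged from -0.543 to 0.573 (median -0.085), with 15 of 52 over 0.1. Of the libraries, 9 of 14 correlated best with their own number. The pairs share libraries and group means and are not independent. All 3 same-numbered pairs were over 0.1 for TER119-SIINFEKL with Naive (0.259, 0.322 and 0.300) and with OVA (0.665, 0.292 and 0.247), but not for the other groups of 3. In TER119-SIINFEKL minus Naive the block left every receptor call in place. With a replicate block Ctla4 was -0.16 in TER119-SIINFEKL minus SIINFEKL and 1.44 (called) in SIINFEKL minus OVA, and the genes called were 69 in ERY1-OVA minus OVA and 32 in TER119-SIINFEKL minus ERY1-OVA, against 104 and 55. Those 2 counts were 1745 and 1292 with array weights and 359 and 163 without the SIINFEKL group, and the former was 13 without both replicates named above. In SIINFEKL minus Naive 1559 genes were called, 788 with array weights and 605 with only the groups compared, where TER119-SIINFEKL minus SIINFEKL fell from 3664 to 2131.

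With 1 library left out at a time, Pdcd1 ranged from 0.56 to 0.73 in ERY1-OVA minus OVA, 0.12 to 3.81 in TER119-SIINFEKL minus SIINFEKL, 0.97 to 1.09 in TER119-SIINFEKL minus ERY1-OVA, -2.13 to 1.56 in SIINFEKL minus OVA, 0.38 to 2.23 in targeted minus soluble and -0.52 to 3.18 in the peptide-minus-protein test. Lag3 ranged from 1.15 to 1.40, -1.11 to 2.75, -1.05 to 2.81 (SIINFEKL minus OVA), 0.07 to 2.01 and -2.38 to 1.49 in the same comparisons without TER119-SIINFEKL minus ERY1-OVA. These sign changes came with leaving out 1 SIINFEKL library. Ctla4 ranged from -0.52 to 0.70 in TER119-SIINFEKL minus SIINFEKL, -0.29 to 0.41 in TER119-SIINFEKL minus ERY1-OVA and 0.58 to 1.80 in SIINFEKL minus OVA, and Tigit from 0.65 to 1.57 in SIINFEKL minus Naive, 0.97 to 1.17 in targeted minus soluble and 1.05 to 1.44 in the peptide-minus-protein test. Genes called ranged from 363 to 2438 in SIINFEKL minus Naive, 0 to 360 in ERY1-OVA minus OVA, 0 to 163 in TER119-SIINFEKL minus ERY1-OVA and 390 to 1092 in targeted minus soluble (778 with all libraries). A group reduced to 1 library was assumed to vary like the others. Counts over the gene lists kept within 1.5 times in 2089 cases and moved in 261. Without counts, the precision of low values such as Pdcd1 in Naive libraries cannot be set.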
